A study of Schizosaccharomyces pombe with 21 samples.

Results

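The genes described here handle copper and zinc in the fission yeast Schizosaccharomyces pombe, a single-celled fungus. They are 8 of the 6988 genes in the count tables and were picked by gene symbol for their role in copper or zinc handling, with earlier results of these libraries known. The copper genes are ctr4 (SPCC1393.10), ctr5 (SPAC1142.05), ctr6 (SPBC23G7.16) and cuf1 (SPAC31A2.11c). The metallothionein gene is zym1 (SPAC22H10.13), and the zinc genes are zrt1 (SPBC16D10.06), zhf1 (SPAC23C11.14) and loz1 (SPAC25B8.19c). All 8 were found and all 8 passed the filter on low counts.

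The study measured polyA RNA by paired-end RNA sequencing in 21 libraries, 3 biological replicates in each of 7 groups. HASX is strain BS1453 with 4 engineered genes, asp1-H397A::natMX, aps1∆::kanMX, siw14∆::hygMX and spx1∆::ura4MX. The HASX groups had spent 1, 2 or 4 h in medium lacking phosphate. The wild-type (WT) groups, of strain Sp1, had spent the same 1, 2 or 4 h in that medium or, at 0 h, were still in medium with phosphate. Both strains are labelled h-, the M mating type, and were grown at 30 °C to log phase in a medium called ePMGT before the shift. HASX was not sampled at 0 h here, so its level before the shift is unknown. Each strain stands for a single genotype, and HASX joins 4 changes that cannot be told apart. Differences between the strains in ura4 and mating-type gene levels, given below, cannot be told apart from these changes either.

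Copper and zinc are needed by enzymes but are harmful in excess, so cells adjust uptake, storage and buffering. In fission yeast the Ctr4 and Ctr5 proteins form the copper transporter of the plasma membrane, Ctr6 releases copper from the vacuole, and the activator Cuf1 switches on their genes when copper is scarce. Zrt1 brings in zinc, Zhf1 moves zinc into the endoplasmic reticulum, the metallothionein Zym1 binds zinc, and the repressor Loz1 shuts off zrt1 when zinc is plentiful. Asp1, Aps1 and Siw14 are enzymes of inositol pyrophosphates, the small signalling molecules of phosphate sensing, and the asp1-H397A allele lacks the pyrophosphatase activity of Asp1.

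Libraries held between 11235668 and 23680823 counts, and member counts ran between 149 and 159850 per library. The engineered genes followed the labels in part. Aps1 had 3.2 to 15.3 CPM (a gene's count scaled to a common library total, on TMM-scaled library sizes) in the 9 HASX libraries and 156 to 215 CPM in the 12 WT libraries. Its HASX median was 4.04 CPM, and its highest HASX value was in a 4 h library. The ura4 marker had 640 to 923 CPM in HASX and no counts in WT. For spx1, which encodes an SPX-domain protein and is named pqr1 in the annotation, HASX had 43.3 to 99.6 CPM and WT 232 to 343 CPM. Siw14 was at 69.61 CPM in the library labelled HASX 4 h replicate 3, against 2.614 and 1.775 CPM in the other 4 h HASX libraries and 98.6 to 257 CPM in WT. That library also had 306.2 CPM of asp1, against 83.48 and 83.41 CPM, and its log2 CPM correlated at 0.896 and 0.893 with its replicates, where all other replicate pairs lay between 0.983 and 0.996. Of the M-cell genes, mfm2 was at 2.17 to 7.49 CPM in HASX and 129 to 535 CPM in WT, and mam2 at 1.89 to 5.4 CPM in HASX and 14 to 47.8 CPM in WT. Of the other M-cell genes, mam1 had 41.8 to 74.5 CPM in HASX and 61.3 to 136 CPM in WT, mfm1 2.22 to 3.94 CPM in HASX and 4.55 to 26 CPM in WT, and mfm3 0.396 to 2.28 CPM in HASX and 0.988 to 4.56 CPM in WT. Of the P-cell genes, map2 had 6.24 to 44.4 CPM in HASX, highest in that same library, and 1.83 to 5.94 CPM in WT, while map3 had 14.3 to 40 CPM in HASX and 11.3 to 24.2 CPM in WT. The part of these differences in the results was not tested, apart from fits without the library labelled HASX 4 h replicate 3, given below.

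Across the 7 groups zym1 moved most of the 8 genes. Its highest group mean was 767 times its lowest, against 20.5 times for zrt1, 12.6 for ctr4, 4.6 for zhf1, 3.76 for ctr5, 3.24 for cuf1, 2.7 for loz1 and 2.44 for ctr6. The metallothionein gene and the repressor gene loz1 had their highest mean in HASX at 4 h. The uptake gene zrt1 and the transporter gene zhf1 had theirs in WT at 0 h. The subunit genes of the copper transporter parted: ctr4 was highest in WT at 1 h and ctr5 in HASX at 1 h.

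**Figure D1:**
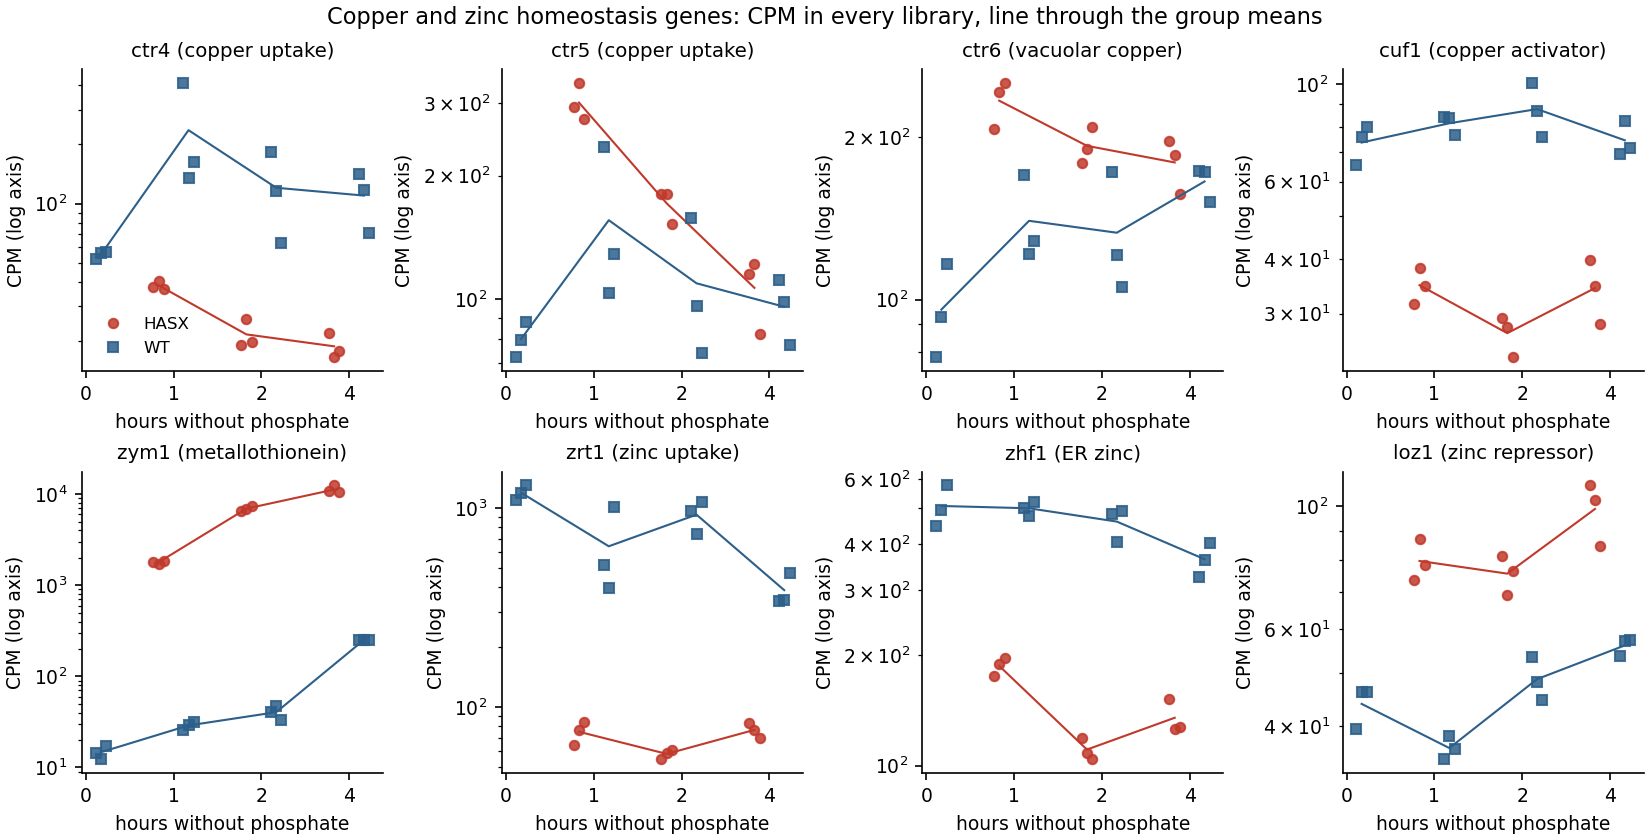
CPM of the 8 genes in every library (log axis, scaled separately for each gene) against hours without phosphate. Circles are HASX libraries, squares are WT libraries and lines join the group means of 3 libraries. HASX and WT libraries do not overlap at any shared time for ctr4, cuf1, zym1, zrt1, zhf1 and loz1. The share of all genes without overlap was not computed. Between the strains 74.2%, 76.8% and 75.6% of all genes tested were called at 1, 2 and 4 h, so this lack of overlap says little about these genes.

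HASX was compared with WT at the same hour without phosphate. With no HASX sample at 0 h, a difference held before the shift cannot be told apart here from a different response. In HASX, zym1 and loz1 were higher at all 3 times, and ctr4, cuf1, zrt1 and zhf1 were lower at all 3 times. Ctr5 and ctr6 were higher at 1 h and 2 h and did not pass the test at 4 h. A gene was called at an adjusted p under 0.05 in edgeR's quasi-likelihood test, with Benjamini-Hochberg adjustment over the 6234 genes tested. At 1 h 8 of 8 members were called, where 74.2% of all genes tested were. At 2 h 8 of 8 were called against 76.8% of all genes, and at 4 h 6 of 8 against 75.6%. With a background this high, the count of called members says little about the members, and their sizes are given beside those of all genes. The median absolute log2 fold change of the 8 members was 1.32 at 1 h, 1.88 at 2 h and 1.28 at 4 h, and that of all genes tested was 0.94, 1.03 and 0.87. Split by direction, 4 members were higher and 4 lower at 1 h and at 2 h, and 2 were higher and 4 lower at 4 h. Of all genes, 36.4%, 37.5% and 38.3% were higher and 37.8%, 39.3% and 37.3% lower at the 3 times in that order. The libraries come from whole cultures, so fewer cells with an RNA and less of that RNA per cell cannot be told apart.

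**Figure D2:**
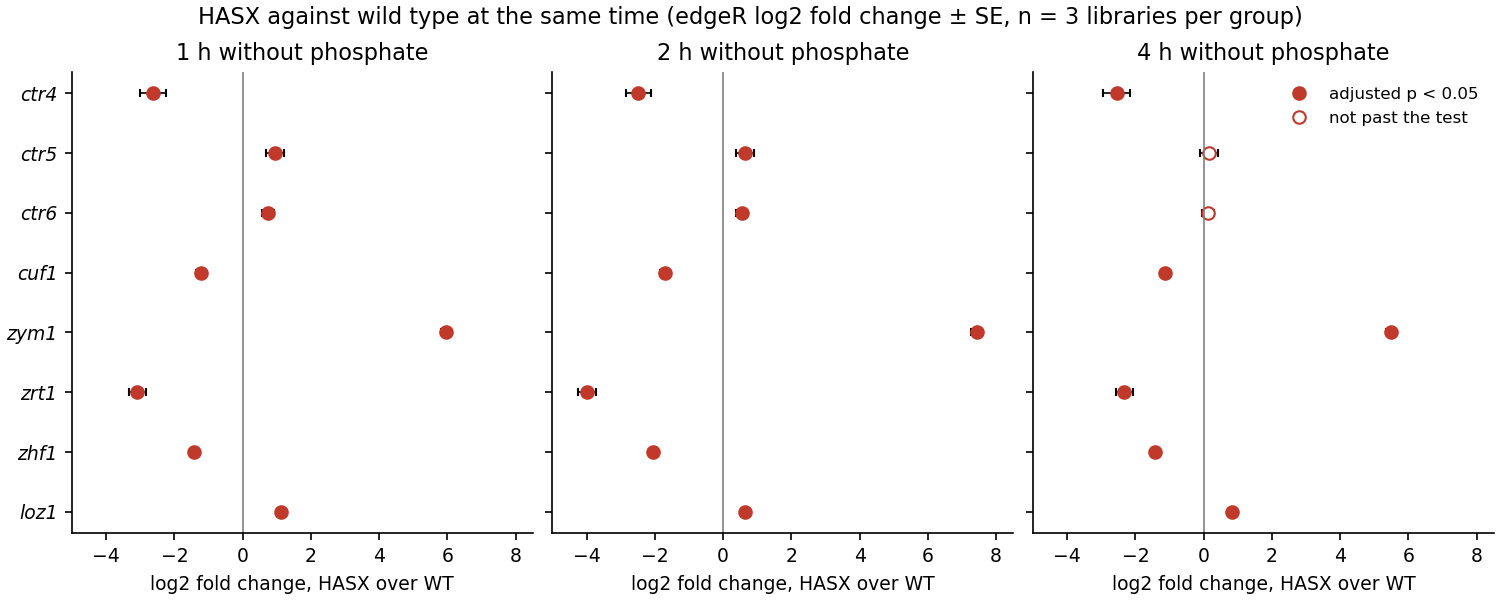
Log2 fold change of HASX over WT at 1, 2 and 4 h without phosphate for each of the 8 genes, with its standard error (3 libraries per group). Filled points passed the test and open points did not. Zym1 lies between 5.49 and 7.43, and zrt1 between -3.99 and -2.33.

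Within WT, cells at 1, 2 and 4 h without phosphate were each compared with WT at 0 h to follow the response to starvation. The metallothionein gene zym1 and the copper uptake gene ctr4 were higher at every time. The zinc uptake gene zrt1 was lower at 1 h and at 4 h, and did not pass the test at 2 h. At 1 h 5 of 8 members were called, 4 higher and 1 lower, where 9.29% of all genes tested were called, 4.27% higher and 5.02% lower. At 2 h 2 of 8 were called, both higher, against 17.6% of all genes, 10.9% higher and 6.66% lower. At 4 h 6 of 8 were called, 4 higher and 2 lower, against 51.5% of all genes, 26.5% higher and 25% lower. The members' median absolute log2 fold change was 0.72 at 1 h, 0.41 at 2 h and 0.63 at 4 h, and that of all genes was 0.19, 0.29 and 0.48. Leaving out each library in turn ended the call of 3 of the 5 members at 1 h, 1 of 2 at 2 h and 2 of 6 at 4 h in at least 1 of the 21 fits. The same was true of 0 of 8, 2 of 8 and 0 of 6 members for HASX over WT at 1, 2 and 4 h.

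Ctr4, a subunit of the copper transporter of the plasma membrane, was lower in every HASX library than in every WT library, the phosphate-replete ones included. It had 37.57, 40.39 and 36.82 CPM in HASX and 411.9, 134.8 and 163.1 CPM in WT at 1 h. The 2 h values were 19.09, 25.77 and 19.71 CPM in HASX and 182.1, 116.1 and 62.85 CPM in WT. At 4 h it had 21.86, 16.53 and 17.75 CPM in HASX and 142.1, 116.7 and 70.61 CPM in WT. The HASX libraries lay close together, while WT replicate 1 was the highest of its group at each time. Ctr4 was 6.19-fold lower in HASX at 1 h (log2 -2.63 ± 0.38 SE, adjusted p = 3.18e-06), 5.58-fold lower at 2 h (log2 -2.48 ± 0.38, adjusted p = 6.76e-06) and 5.86-fold lower at 4 h (log2 -2.55 ± 0.39, adjusted p = 7.24e-06). Each of these calls was kept in all 21 fits with a library left out. Without WT 1 h replicate 1 the 1 h value of ctr4 was -1.96 (adjusted p = 1.37e-05), and without the library labelled HASX 4 h replicate 3 the 4 h value was -2.47 (adjusted p = 3.48e-05).

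In WT the ctr4 level at 0 h was 52.25, 55.78 and 56.4 CPM, below every starved WT library. Its rise was 4.32-fold at 1 h (SE 0.37 on the log2 scale, adjusted p = 6.77e-04), and it ranked 11th highest of the 6234 genes by log2 fold change. At 2 h and 4 h the rises were 1.13 ± 0.36 (adjusted p = 0.0361) and 1.0 ± 0.36 (adjusted p = 0.0246) on the log2 scale. Without WT 1 h replicate 1, at 411.9 CPM, the rise at 1 h was 1.44 on the log2 scale (adjusted p = 0.00599). The 2 h call was lost in 8 of 21 fits with a library left out (without WT 2 h replicate 1 the value was 0.71, adjusted p = 0.289) and the 4 h call in 4 of 21 (0.77 without WT 4 h replicate 1, adjusted p = 0.115). Against WT at 0 h, HASX ctr4 was lower at 2 h (log2 -1.35 ± 0.37, adjusted p = 0.00276) and at 4 h (log2 -1.55 ± 0.38, adjusted p = 9.83e-04). At 1 h that difference was -0.52 ± 0.36 (adjusted p = 0.2), though the 3 HASX libraries lay below the 3 WT libraries, and a fit of those groups alone called it (-0.51, adjusted p = 0.00397).

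Ctr5, the partner subunit, took the other direction in HASX. It had 293.2, 336.2 and 274.3 CPM in HASX and 234.7, 103.8 and 128.9 CPM in WT at 1 h. Values at 2 h were 180.5, 180.5 and 152.8 CPM in HASX and 158, 96.09 and 74.12 CPM in WT. At 4 h it had 115.4, 122.2 and 82.31 CPM in HASX and 111.6, 98.65 and 77.52 CPM in WT. The groups were apart at 1 h, and the lowest HASX library fell below the highest WT library at 2 h and at 4 h. Ctr5 was 1.93-fold higher in HASX at 1 h (log2 0.95 ± 0.26, adjusted p = 0.00299) and 1.57-fold higher at 2 h (log2 0.65 ± 0.26, adjusted p = 0.0308). At 4 h the difference was 0.15 ± 0.26 (adjusted p = 0.61), or 0.34 without the library labelled HASX 4 h replicate 3 (adjusted p = 0.241). The 2 h call was lost without WT 2 h replicate 3 (0.43, adjusted p = 0.159), WT 2 h replicate 2 (0.56, adjusted p = 0.101) or HASX 2 h replicate 1 (0.61, adjusted p = 0.0741).

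Ctr5 was at 72.43, 79.66 and 88.04 CPM in WT at 0 h. Its rise at 1 h was 1.95-fold (log2 0.96 ± 0.26, adjusted p = 0.0258), and without WT 1 h replicate 1 the value was 0.54 (adjusted p = 0.244). Leaving out WT 0 h replicate 1 (0.89, adjusted p = 0.0977) or WT 0 h replicate 2 (0.96, adjusted p = 0.0865) also ended the call. At 2 h and 4 h ctr5 was at 0.45 ± 0.26 (adjusted p = 0.216) and 0.26 ± 0.26 (adjusted p = 0.427) over WT at 0 h. Ordered by group mean, HASX at 1 h (301.2 CPM) lay above every other group with no overlap, and each further neighbouring pair of groups, down to WT at 0 h (80.05 CPM), overlapped.

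Ctr6, the copper transporter of the vacuole membrane, was higher in HASX than in WT at 1 h and 2 h, as ctr5 was. It had 206.7, 242.3 and 252.1 CPM in HASX and 169.9, 121.4 and 128.5 CPM in WT at 1 h. After 2 h the values were 179.2, 189.9 and 209.1 CPM in HASX and 172.6, 120.8 and 105.6 CPM in WT. At 4 h it had 196.5, 185.2 and 156.9 CPM in HASX and 172.8, 172 and 151.8 CPM in WT. The groups were apart at 1 h and 2 h and overlapped at 4 h, when the WT mean was higher than at 1 h or 2 h and the HASX mean lower. The HASX means were 233.7, 192.7 and 179.5 CPM at 1, 2 and 4 h, and HASX at 4 h over 1 h was at -0.38 ± 0.17 (log2, adjusted p = 0.0757). Ctr6 was 1.67-fold higher in HASX at 1 h (log2 0.74 ± 0.17, adjusted p = 6.45e-04) and 1.45-fold higher at 2 h (log2 0.54 ± 0.17, adjusted p = 0.00771), and the 4 h difference was 0.12 ± 0.17 (adjusted p = 0.541). The 2 h call was lost without WT 2 h replicate 3 (0.39, adjusted p = 0.0532).

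In WT at 0 h ctr6 had 78.27, 92.65 and 116.4 CPM. It was 1.73-fold higher at 4 h (log2 0.79 ± 0.17, adjusted p = 7.72e-04), a call kept in all 21 fits with a library left out. The 1 h rise of 0.55 ± 0.17 (adjusted p = 0.0493) was lost in 15 of those 21 fits, with DESeq2's size factors (adjusted p = 0.0647) and with no filter on low counts (adjusted p = 0.0523). At 2 h the value was 0.47 ± 0.17 (adjusted p = 0.0601), which DESeq2 called (0.49, adjusted p = 0.0317). The group means of ctr6 ran between 95.79 CPM in WT at 0 h and 233.7 CPM in HASX at 1 h, and every pair of neighbouring groups in that order overlapped.

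Cuf1, the activator of the copper uptake genes under scarcity, was lower in HASX at all times and did not pass the test at any time in WT. It had 31.64, 38.19 and 34.68 CPM in HASX and 84.01, 83.67 and 76.6 CPM in WT at 1 h. Its 2 h values were 29.37, 27.98 and 23.92 CPM in HASX and 100.6, 86.8 and 75.75 CPM in WT, and at 4 h 39.84, 34.61 and 28.48 CPM in HASX and 69.44, 82.5 and 71.5 CPM in WT. The highest of the 9 HASX libraries lay below the lowest of the 12 WT libraries, which was 65.47 CPM at 0 h. Cuf1 was 2.34-fold lower at 1 h (log2 -1.23 ± 0.13, adjusted p = 8.36e-08), 3.24-fold lower at 2 h (log2 -1.7 ± 0.14, adjusted p = 7.7e-10) and 2.17-fold lower at 4 h (log2 -1.12 ± 0.13, adjusted p = 3.74e-07). Starved WT over WT at 0 h gave 0.15 ± 0.13, 0.25 ± 0.13 and 0.02 ± 0.13 at 1, 2 and 4 h (adjusted p = 0.609, 0.168 and 0.925).

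Of 12 further genes listed for copper, 11 were matched and tested. In HASX over WT, 7 were higher and 2 lower at 1 h, 8 higher and 1 lower at 2 h, and 10 higher and 1 lower at 4 h. Of all genes tested, 36.4%, 37.5% and 38.3% were higher and 37.8%, 39.3% and 37.3% lower at those times. The median log2 fold change of the 11 copper genes was 0.92, 1.01 and 0.95, against -0.01, -0.01 and 0.05 for all genes. The list was chosen with earlier results of these libraries known, so its direction is no independent evidence. The gene lower at all 3 times was atx1, a copper chaperone of the cytosol, at log2 -2.28 ± 0.13, -2.55 ± 0.14 and -1.86 ± 0.13. It averaged 24 ± 1.18 CPM in HASX and 116.2 ± 2.72 CPM in WT at 1 h (SD, n = 3 each).

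Among the copper genes that were higher in HASX, cao1, a copper amine oxidase, was at log2 2.91 ± 0.12, 1.84 ± 0.11 and 1.16 ± 0.11 at 1, 2 and 4 h. Its relative cao2 was at 2.49 ± 0.17, 3.25 ± 0.17 and 1.65 ± 0.16. Mfc1, a copper transporter of meiotic cells, was at 3.54 ± 0.31, 1.02 ± 0.29 and 0.64 ± 0.28. Mfc1 levels were low, 15.57 ± 2.56 CPM in HASX and 1.332 ± 0.109 CPM in WT at 1 h. Cuf2, a meiotic relative of cuf1, was called higher too but stayed at or under 1.768 CPM in every HASX library and 0.2663 CPM in every WT library. Cox19, cox17 and ccc2, which deliver copper in mitochondria or pump it into the secretory pathway, were higher at all 3 times, at 2.06 ± 0.22, 1.01 ± 0.13 and 0.78 ± 0.08 at 2 h. Sod1, the copper-zinc superoxide dismutase, was lower at 1 h (-0.96 ± 0.15), at -0.01 ± 0.15 at 2 h (adjusted p = 0.969) and higher at 4 h (0.95 ± 0.15).

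In WT over WT at 0 h, 2 of the same 11 copper genes were called at 1 h, 1 at 2 h and 4 at 4 h. Of all genes tested, 9.29%, 17.6% and 51.5% were called at those times. At 1 h sod1 was higher (0.64 ± 0.15) and ccc2 lower (-0.37 ± 0.08), and at 2 h ccc2 alone was called (-0.31 ± 0.08). At 4 h cao2 (2.68 ± 0.17), mfc1 (1.09 ± 0.29) and cao1 (0.9 ± 0.11) were higher and ccc2 was lower (-0.4 ± 0.08). Cao2 averaged 34.95 ± 2.86 CPM at 4 h and 5.443 ± 0.611 CPM at 0 h (SD, n = 3 each).

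Copper is also needed by iron uptake, through the multicopper ferroxidase Fio1, which works with the iron permease Fip1 and the ferric reductase Frp1. In WT, 3 of these 3 genes were lower than at 0 h at every time, where 5.02%, 6.66% and 25% of all genes were. The values at 1 h were log2 -2.62 ± 0.61 for fio1, -2.76 ± 0.61 for fip1 and -3.42 ± 0.48 for frp1. For HASX over WT only frp1 was called, lower at 1 h (log2 -1.27 ± 0.46, adjusted p = 0.0186) and likewise at 2 h (log2 -1.23 ± 0.46, adjusted p = 0.0208). The standard errors were large, and the third WT replicate of each starved group stood high. Fip1 had 60.97, 49.97 and 205.6 CPM in WT at 1 h and 56.72, 48.59 and 272.7 CPM in WT at 2 h.

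**Figure D3:**
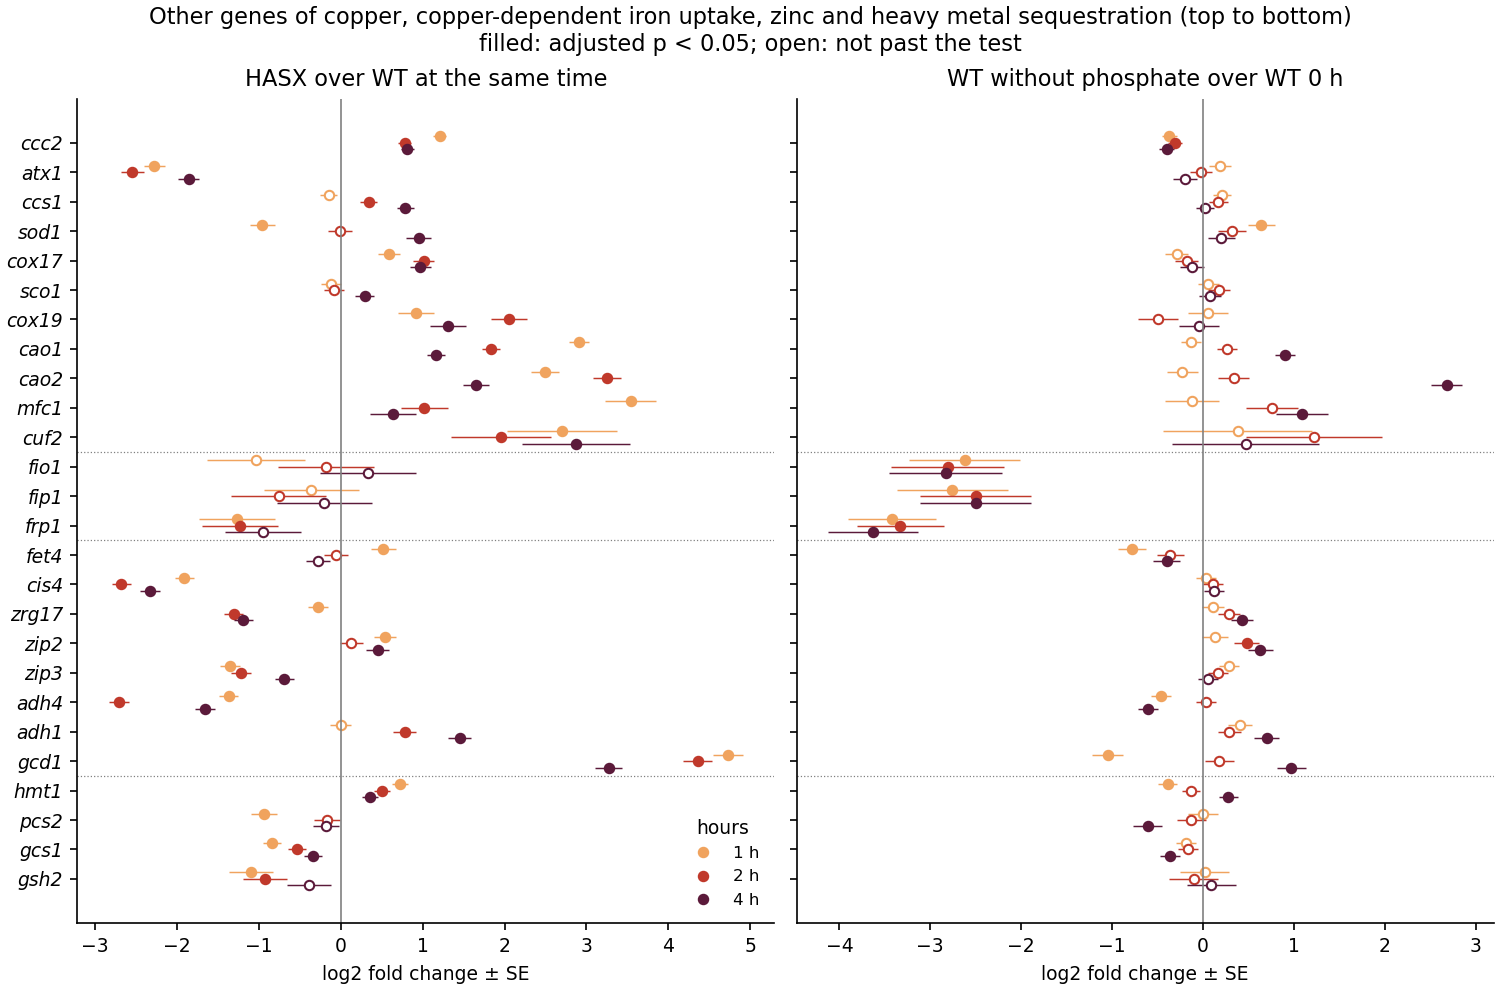
Log2 fold change with its standard error for 26 further genes of copper, copper-dependent iron uptake, zinc and heavy metal sequestration, HASX over WT at the same time on the left and starved WT over WT at 0 h on the right. Filled points passed the test. At 1 h gcd1 is the highest gene on the left, at 4.73, and atx1 the lowest, at -2.28. The 3 iron uptake genes lie lowest on the right.

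Zym1, the metallothionein gene, was the member with the largest change in every comparison of HASX with WT. It had 1801, 1734 and 1843 CPM in HASX and 25.61, 29.5 and 31.62 CPM in WT at 1 h. The levels at 2 h were 6569, 6927 and 7356 CPM in HASX and 40.92, 46.98 and 33.48 CPM in WT. At 4 h it had 10740, 12570 and 10470 CPM in HASX and 250.4, 249.7 and 253.9 CPM in WT. No pair of the 7 groups overlapped. Zym1 took 0.892% of all counts in HASX at 4 h and 0.00157% in WT at 0 h. The fold differences of HASX over WT were 62 at 1 h (log2 5.95 ± 0.15, adjusted p = 1.73e-16), 172 at 2 h (log2 7.43 ± 0.16, adjusted p = 2.19e-17) and 44.8 at 4 h (log2 5.49 ± 0.15, adjusted p = 5.54e-16). By log2 fold change zym1 ranked 47th highest of 6234 genes at 1 h, 23rd at 2 h and 120th at 4 h. These calls were kept in all 21 fits with a library left out, and without the library labelled HASX 4 h replicate 3 the 4 h value was 5.57.

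In WT zym1 was at 14.5, 12.34 and 17.2 CPM at 0 h. It was 1.97-fold higher at 1 h (log2 0.98 ± 0.13, adjusted p = 5.04e-05) and 2.76-fold higher at 2 h (log2 1.46 ± 0.13, adjusted p = 3.79e-07). At 4 h it was 17.1-fold higher (log2 4.1 ± 0.14, adjusted p = 1.31e-13), the 16th highest of 6234 genes. These 3 calls held in all 21 fits with a library left out. HASX at 1 h was already 122-fold above WT at 0 h (log2 6.93 ± 0.16, adjusted p = 4.3e-17), and HASX at 4 h was 768-fold above it (log2 9.58 ± 0.18, adjusted p = 2.09e-18). Without a HASX sample at 0 h, what the mutant had before starvation cannot be told apart from what it gained in the first hour.

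Zrt1, the zinc transporter of the plasma membrane, was lower in every HASX library than in every WT library. It had 64.29, 76.68 and 84.5 CPM in HASX and 514.2, 397.6 and 1012 CPM in WT at 1 h. At 2 h it had 54.78, 58.68 and 61.15 CPM in HASX and 963.8, 741.9 and 1067 CPM in WT. At 4 h it had 83.56, 77.09 and 69.8 CPM in HASX and 342, 344.9 and 471.5 CPM in WT. HASX varied little over time, while WT varied both between times and between replicates, with WT replicate 3 the highest of its group each time. Zrt1 was 8.53-fold lower in HASX at 1 h (log2 -3.09 ± 0.25, adjusted p = 1.17e-09), 15.9-fold lower at 2 h (log2 -3.99 ± 0.26, adjusted p = 4.02e-11) and 5.03-fold lower at 4 h (log2 -2.33 ± 0.25, adjusted p = 6.54e-08).

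Against 1092, 1182 and 1299 CPM in WT at 0 h, starved WT zrt1 fell by 0.89 ± 0.23 on the log2 scale at 1 h (adjusted p = 0.0202). At 2 h the value was -0.37 ± 0.23 (adjusted p = 0.255), though every WT library at 2 h lay below every WT library at 0 h. At 4 h zrt1 fell 3.08-fold (log2 -1.62 ± 0.24, adjusted p = 1.46e-05). The 4 h call held in all 21 fits with a library left out. The 1 h call was lost without WT 1 h replicate 1 (-0.76, adjusted p = 0.119), WT 1 h replicate 2 (-0.64, adjusted p = 0.108) or WT 0 h replicate 2 (-0.9, adjusted p = 0.0567), and in a fit of those groups alone (-0.88, adjusted p = 0.0655).

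Zhf1, the zinc transporter of the endoplasmic reticulum, was also lower in HASX at each time. It had 175, 189.2 and 195.5 CPM in HASX and 502.1, 477.9 and 521.5 CPM in WT at 1 h. At 2 h it had 119, 108.5 and 104.1 CPM in HASX and 484.1, 406 and 491.5 CPM in WT, and at 4 h 151.8, 125.4 and 127.4 CPM in HASX and 326.5, 361.4 and 403.9 CPM in WT. No HASX library reached the lowest WT library. Zhf1 was 2.68-fold lower at 1 h (log2 -1.42 ± 0.11, adjusted p = 6.11e-10), 4.17-fold lower at 2 h (log2 -2.06 ± 0.11, adjusted p = 2.77e-12) and 2.7-fold lower at 4 h (log2 -1.43 ± 0.11, adjusted p = 8.7e-10). In WT, where zhf1 had 448.5, 496.6 and 578.3 CPM at 0 h, it fell by 0.48 ± 0.11 on the log2 scale at 4 h (adjusted p = 0.00122), and the values at 1 h and 2 h were -0.02 ± 0.11 and -0.14 ± 0.11 (adjusted p = 0.956 and 0.358).

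Loz1, the repressor of zrt1 in cells with enough zinc, was higher in HASX at all 3 times. It had 73.49, 87.17 and 78.14 CPM in HASX and 34.9, 38.38 and 36.36 CPM in WT at 1 h. At 2 h it had 81.14, 68.98 and 76.42 CPM in HASX and 53.43, 48.07 and 44.55 CPM in WT, and at 4 h 109.1, 102.7 and 84.67 CPM in HASX and 53.56, 57.13 and 57.36 CPM in WT. Every HASX library lay above every WT library. Loz1 was 2.18-fold higher at 1 h (log2 1.12 ± 0.11, adjusted p = 1.72e-08), 1.55-fold higher at 2 h (log2 0.63 ± 0.11, adjusted p = 2.85e-05) and 1.76-fold higher at 4 h (log2 0.82 ± 0.11, adjusted p = 1.49e-06). In WT it was at 39.5, 46.13 and 46.13 CPM at 0 h and rose by 0.35 ± 0.11 at 4 h (log2, adjusted p = 0.0113), which was not called without WT 0 h replicate 1 (0.28, adjusted p = 0.0652). At 1 h and 2 h the values were -0.27 ± 0.11 and 0.15 ± 0.11 (adjusted p = 0.152 and 0.33).

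Of 9 further genes listed for zinc, 8 were tested. SPBC1348.06c, known as a target of Loz1 repression, was filtered out and had at most 0.2199 CPM in any HASX library and 0.5123 CPM in any WT library. In HASX over WT, 3 were higher and 4 lower at 1 h, 2 higher and 4 lower at 2 h, and 3 higher and 4 lower at 4 h. Of all genes tested, 36.4%, 37.5% and 38.3% were higher and 37.8%, 39.3% and 37.3% lower at those times. The zinc list had medians of -0.14, -0.64 and -0.48, against -0.01, -0.01 and 0.05 for all genes. Its lower genes were the same 4 each time, cis4, adh4, zip3 and zrg17. Cis4, a zinc transporter of the Golgi, was at log2 -1.91 ± 0.12, -2.68 ± 0.12 and -2.33 ± 0.12, and its partner zrg17 at -0.28 ± 0.12, -1.31 ± 0.12 and -1.19 ± 0.12. Adh4, an alcohol dehydrogenase gene that Loz1 represses as it does zrt1, was at -1.37 ± 0.12, -2.71 ± 0.12 and -1.66 ± 0.12. Zip3, a transporter of the ZIP family, was at -1.35 ± 0.12, -1.22 ± 0.12 and -0.69 ± 0.12.

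Gcd1, a glucose dehydrogenase, was the most raised of the zinc list in HASX, at log2 4.73 ± 0.18, 4.36 ± 0.18 and 3.27 ± 0.17. It averaged 613.6 ± 74.2 CPM in HASX and 29.79 ± 2.27 CPM in WT at 2 h (SD, n = 3 each). Adh1, the main alcohol dehydrogenase and a zinc enzyme, was higher at 2 h (0.78 ± 0.14) and 4 h (1.45 ± 0.14). Fet4 was higher at 1 h (0.52 ± 0.15), and zip2 at 1 h (0.54 ± 0.14) and 4 h (0.45 ± 0.14). In WT over WT at 0 h, 3 of the 8 were lower at 1 h, namely gcd1 (-1.05 ± 0.17), fet4 (-0.78 ± 0.15) and adh4 (-0.46 ± 0.11). At 2 h zip2 was higher (0.48 ± 0.14), and at 4 h 4 were higher and 2 lower, led by gcd1 (0.97 ± 0.16) and adh4 (-0.6 ± 0.11). Of all genes tested, 4.27%, 10.9% and 26.5% were higher and 5.02%, 6.66% and 25% lower at 1, 2 and 4 h.

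The 4 genes of glutathione and phytochelatin, the thiol compounds that bind heavy metals, were called in both directions. For HASX over WT, 1 was higher and 3 lower at 1 h, 1 higher and 2 lower at 2 h, and 1 higher and 1 lower at 4 h. The shares of all genes tested were 36.4%, 37.5% and 38.3% higher and 37.8%, 39.3% and 37.3% lower, so these calls say little about the 4 genes. In HASX over WT, hmt1, a vacuolar pump for phytochelatins, was higher at all 3 times (0.72 ± 0.1, 0.5 ± 0.1 and 0.36 ± 0.1) and gcs1, a glutathione synthesis enzyme, lower at all 3 (-0.84 ± 0.11, -0.54 ± 0.11 and -0.34 ± 0.11). Gsh2 was lower at 1 h and 2 h (-1.1 ± 0.27 and -0.93 ± 0.27) and was at -0.39 ± 0.27 at 4 h (adjusted p = 0.201). Its 4 h levels were 47.2 and 52.57 CPM in HASX replicates 1 and 2 and 152.7 CPM in the library labelled HASX 4 h replicate 3, against 117.6, 104.1 and 110.1 CPM in WT. Pcs2, the phytochelatin synthase, was lower at 1 h (-0.94 ± 0.16). In WT over WT at 0 h, hmt1 was lower at 1 h (-0.39 ± 0.1) and higher at 4 h (0.28 ± 0.1), and pcs2 and gcs1 were lower at 4 h (-0.61 ± 0.16 and -0.36 ± 0.11). There 4.27% of all genes were higher and 5.02% lower at 1 h, and 26.5% higher and 25% lower at 4 h.

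HASX was also set against WT at 0 h, the reference that the authors' deposited tables use and that the starved WT groups share. At 1 h 7 of 8 members were called, where 73.8% of all genes were, at 2 h 8 of 8 against 75.6%, and at 4 h 7 of 8 against 78.9%. Zrt1 was 15.8-fold lower at 1 h (log2 -3.99 ± 0.26), 20.4-fold lower at 2 h (log2 -4.35 ± 0.27) and 15.5-fold lower at 4 h (log2 -3.95 ± 0.26). Loz1 was higher by 0.86 ± 0.11, 0.78 ± 0.11 and 1.17 ± 0.11 on the log2 scale at 1, 2 and 4 h, and cuf1 was at -1.08 ± 0.13, -1.44 ± 0.14 and -1.1 ± 0.13. Ctr5 was 3.76-fold higher at 1 h (log2 1.91 ± 0.27, adjusted p = 2.65e-06) and 2.14-fold higher at 2 h (log2 1.1 ± 0.26, adjusted p = 9.13e-04), and at 4 h it was at 0.41 ± 0.26 (adjusted p = 0.158). Ctr6 was higher at all 3 times, by 1.29 ± 0.17, 1.01 ± 0.17 and 0.91 ± 0.17. All of these calls were kept in all 21 fits with a library left out.

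Change over time was compared within each strain and then between the strains. In HASX zym1 went on rising, by 1.95 ± 0.13 on the log2 scale at 2 h over 1 h (adjusted p = 2.93e-09) and 2.65 ± 0.13 at 4 h over 1 h (adjusted p = 1.46e-11). Ctr5 fell by 0.81 ± 0.26 at 2 h (adjusted p = 0.023) and by 1.5 ± 0.27 at 4 h (adjusted p = 1.68e-04). Zhf1 fell by 0.76 ± 0.11 at 2 h (adjusted p = 5.17e-05) and by 0.47 ± 0.11 at 4 h (adjusted p = 0.00213). In all, 4 of 8 members were called in HASX at 2 h over 1 h, where 31.6% of all genes were, and 5 of 8 at 4 h over 1 h, where 44.8% were. The other calls were cuf1 lower at 2 h (-0.36 ± 0.13, adjusted p = 0.0469), and ctr4 lower (-1.03 ± 0.38, adjusted p = 0.0325) and loz1 higher (0.31 ± 0.11, adjusted p = 0.0251) at 4 h. Each of those 3 was lost when single libraries were left out, in 12, 5 and 4 of the 21 fits, and ctr5 at 2 h was lost without HASX 1 h replicate 2 (-0.73, adjusted p = 0.0838) or HASX 2 h replicate 3 (-0.74, adjusted p = 0.0721). The highest adjusted p was 0.176 for cuf1 without HASX 1 h replicate 2, 0.0796 for ctr4 without HASX 4 h replicate 2 and 0.103 for loz1 without HASX 4 h replicate 1. Without the library labelled HASX 4 h replicate 3 ctr4 at 4 h over 1 h was -0.96 (adjusted p = 0.0715).

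In WT 2 of 8 members were called at 2 h over 1 h, where 6.42% of all genes were. Both were small rises, of zym1 (0.48 ± 0.13, adjusted p = 0.0293) and loz1 (0.41 ± 0.11, adjusted p = 0.0278), and were lost in 4 and 5 of the 21 fits with a library left out, the highest adjusted p being 0.165 for zym1 without WT 2 h replicate 2 and 0.164 for loz1 without WT 2 h replicate 1. At 4 h over 1 h 6 of 8 were called, against 44.3% of all genes. Zym1 was 8.69-fold higher (log2 3.12 ± 0.14, adjusted p = 5.4e-12), loz1 rose by 0.62 ± 0.11 (adjusted p = 1.32e-04) and zhf1 fell by 0.46 ± 0.11 (adjusted p = 0.00203). Ctr4 (-1.11 ± 0.35, adjusted p = 0.016), ctr5 (-0.7 ± 0.26, adjusted p = 0.0361) and zrt1 (-0.73 ± 0.23, adjusted p = 0.0157) were lower too, with overlapping libraries. Without WT 1 h replicate 1 the value of ctr4 was -0.44 (adjusted p = 0.273) and that of ctr5 -0.28 (adjusted p = 0.383), and without WT 1 h replicate 3 that of zrt1 was -0.24 (adjusted p = 0.285). The call was also lost for ctr4 without WT 4 h replicate 3 (-0.87), for ctr5 without WT 4 h replicate 2 (-0.72) or 3 (-0.57), and for zrt1 without WT 4 h replicate 1 (-0.65) or 2 (-0.66).

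The strains differed in their change over time for some members, by the test of the difference itself. For the step to 2 h over 1 h 3 of 8 members were called, against 29.3% of all genes. The rise of zym1 was larger in HASX by 1.47 ± 0.18 (log2, adjusted p = 9.63e-06). The step was lower in HASX than in WT for zhf1 (-0.64 ± 0.16, adjusted p = 0.00543) and loz1 (-0.49 ± 0.15, adjusted p = 0.0233). Loz1 itself was at -0.08 ± 0.11 in HASX (adjusted p = 0.639) and rose by 0.41 ± 0.11 in WT. The call of the loz1 difference was lost in 4 of 21 fits with a library left out, at an adjusted p of up to 0.0707 without HASX 2 h replicate 2. Zrt1 lay just outside the threshold at -0.9 ± 0.33 (adjusted p = 0.0503). For 4 h over 1 h 2 of 8 were called, against 44.1% of all genes, and both were lost with DESeq2's size factors. These were ctr6 (-0.62 ± 0.24, adjusted p = 0.042) and zym1 (-0.47 ± 0.18, adjusted p = 0.0371). They were lost in 8 and 7 of the 21 fits with a library left out, and without the library labelled HASX 4 h replicate 3 they were at -0.51 for ctr6 (adjusted p = 0.0564) and -0.39 for zym1 (adjusted p = 0.0641).

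Libraries of the same group also varied together for some genes. As a description over 12 WT libraries, the deviations of ctr4 and ctr5 from their group means (log2 CPM) had a Pearson correlation of 0.97, those of ctr5 and ctr6 of 0.9 and those of ctr4 and ctr6 of 0.81. Over the 9 HASX libraries, whose ctr4 deviations were smaller, the same values were 0.28, 0.36 and 0.22. High values were not limited to the copper transporter genes. Over the 12 WT libraries other pairs ranged widely, with atx1 and cis4 at 0.91, ctr6 and adh4 at 0.89 and ctr4 and zym1 at 0.01. In HASX ctr6 and zrt1 were at 0.94 and ctr4 and loz1 at 0. WT 1 h replicate 1 was 0.98 above its group in ctr4 and 0.68 in ctr5, and WT 2 h replicate 3 was 0.81 below in ctr4 (-0.81) and 0.49 below in ctr5 (-0.49). Over the group means, by contrast, ctr4 and ctr5 had a correlation of -0.22 across the 7 groups. The genes of a library share its culture, its extraction and its depth.

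The zinc uptake gene varied with the iron uptake genes in WT. Deviations of zrt1 correlated at 0.81 with fip1, 0.79 with frp1 and 0.75 with fio1 over the 12 WT libraries, and at 0.28, 0.35 and 0.02 over the 9 HASX libraries. Ctr4 deviations ran against those of fip1 in WT (-0.64) and with them in HASX (0.9), where both spreads were narrow. The WT libraries with high fip1 were replicate 3 at 1, 2 and 4 h, in which zrt1 was the highest of its group.

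**Figure D4:**
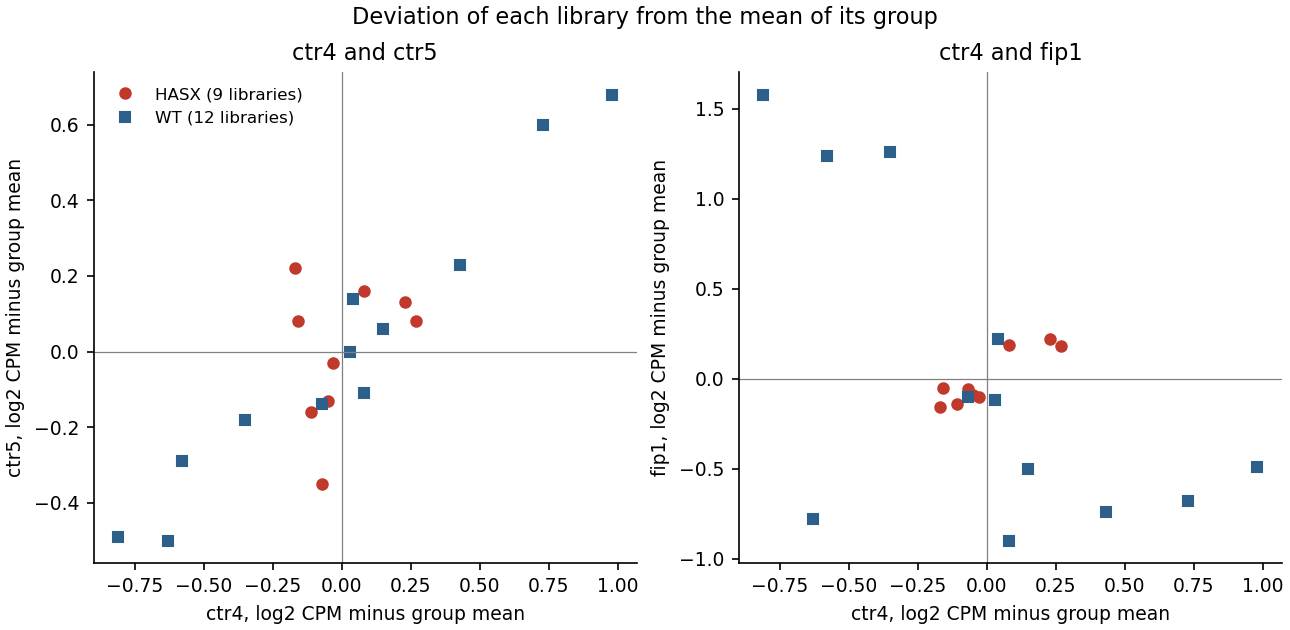
Deviation of each library from its group mean (log2 CPM), ctr5 against ctr4 on the left and fip1 against ctr4 on the right. Circles are the 9 HASX libraries and squares the 12 WT libraries. In WT ctr4 and ctr5 lie along a rising line (Pearson 0.97), and 3 WT libraries with low ctr4 stand high in fip1.

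Some genes outside the 8 followed a member closely over the 7 group means of log2 CPM. Among 4565 protein-coding genes with a mean of at least 10 CPM, the closest to zym1 were phb2 (Pearson 0.9971) and SPBC3H7.08c (0.9962), though phb2 spanned far less, 279 CPM in HASX at 4 h against 165.5 CPM in WT at 0 h. Zrt1 was closest to mdm34 (0.9972) and ura6 (0.9938), zhf1 to rpp40 (0.9958) and pgt1 (0.9946), and loz1 to SPBC56F2.05c (0.9929) and SPAC16A10.01 (0.9925). Cuf1 was closest to lcb4 (0.9992), which had 56.99, 44.77 and 60.6 CPM in HASX at 1, 2 and 4 h and 148.7, 166.6 and 138.6 CPM in WT at the same times, and to otg3 (0.9986). Ctr4 was closest to cnx1 (0.9935) and flx1 (0.9805), ctr6 to hta2 (0.9899) and spd2 (0.9848), and ctr5 to cgr1 (0.918) and trr1 (0.9052). With 7 points and 4565 genes, such values describe likeness in these libraries.

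Among the 8 genes themselves, cuf1, zrt1 and zhf1 shared a pattern over the 7 groups (Pearson 0.96 to 0.98), and zym1 ran against zrt1 (-0.97) and zhf1 (-0.98). Loz1 ran with zym1 (0.95) and against zrt1 (-0.89). The 3 HASX groups and the 4 WT groups lie apart in each of these 5 genes, and all genes share the same libraries.

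The library kit kept strand, but whether the counting used it is not given in the sources used here, so reads of a gene and of an overlapping gene on the other strand may be mixed. By the annotation of a later build, ctr4 and zym1 overlap no other gene, and the remaining 6 members overlap a gene on the opposite strand. SPNCRNA.923 covers 38.7% of ctr5 and averaged 0.4925 to 9.236 CPM over the 7 groups, highest in HASX at 4 h, where the library labelled HASX 4 h replicate 3 reached 23.57 CPM. SPNCRNA.1622, over 4.41% of zrt1, averaged 13.55, 17.51 and 8.915 CPM in HASX at 1, 2 and 4 h, and 9.235, 14.86 and 8.396 CPM in WT at those times, with no call between the strains. In WT over WT at 0 h, where it averaged 24.69 ± 1.63 CPM, it fell with zrt1 at 1 h (-1.42 ± 0.28, adjusted p = 0.00253) and 4 h (-1.56 ± 0.29, adjusted p = 1.65e-04). SPBC16D10.07c, over 5.29% of zrt1, stayed at or under 24.01 CPM in every library, and SPAC25B8.18, over 2.8% of loz1, at or under 12.92 CPM. The annotated RNAs opposite ctr6 (93.8% of the gene), zhf1 (78.4% and 9.04%) and cuf1 (21% and 6%) were not analysed here.

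The authors' deposited tables of fold changes, which set each starved group against WT at 0 h, hold 48 values for the 8 genes. All 48 had the sign of the value computed here, with a median absolute difference of 0.03 on the log2 scale. The largest difference, 0.42, was for ctr4 in HASX at 4 h, with -1.97 in the authors' deposited table and -1.55 here. Other members also differed in that comparison, the authors' value given first. These were ctr6 (1.2 and 0.91), loz1 (0.93 and 1.17), zrt1 (-4.18 and -3.95) and zhf1 (-1.74 and -1.91). Nearer were ctr5 (0.31 and 0.41), cuf1 (-1.02 and -1.1) and zym1 (9.52 and 9.58). The cause was not tested.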

How the data were processed

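The authors deposited raw counts per gene for 21 libraries, WT and HASX in separate tables. HISAT2 2.1.0, SAMtools, HTSeq 0.10.0 and DESeq2 with build ASM294v2 are named, with no role or settings, per the submitters' processing notes. The authors also deposited 6 tables against WT at 0 h with normalized count signals, log2 fold changes, Wald scores and p-values, per the file headers. Their log2 fold changes and adjusted p-values were read only for the side-by-side check.

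The counts were tested with edgeR 4.0.16 under R 4.3.3 (TMM scaling, filterByExpr, 6234 of 6988 genes kept, quasi-likelihood F test, 7 group means over 21 libraries, 14 residual degrees of freedom, 15 comparisons). The test was checked on simulated counts. CPM use TMM-scaled library sizes, and log2 CPM a prior count of 2. Both tables entered the same fit. CPM of different genes are not per length and were not compared with each other.

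Named are the 8 members, further listed genes with the largest called changes (up to 4 per direction, list and comparison), 2 genes of like pattern per member, and the engineered and mating-type genes. Members and lists were chosen with earlier results of these data known. Of 28 further genes listed, 27 were matched by name (cox11 was not, and gsh2 is gsa1 in the annotation) and 26 were tested. Names and overlaps come from the annotation of build ASM294v3, which is not the authors' build, so no positions or sequences are given.

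Replicate numbers could pair libraries. Same-numbered libraries deviated together in all 3 pairs (correlation over 0.1) in 2 of 13 comparisons, WT at 2 h and at 4 h over WT at 1 h. P-values measure the spread between the cultures labelled as biological replicates. Replicates differed by more than sampling noise (smallest chi-square per degree of freedom 6.25). Alternatives were DESeq2 1.42.0, its size factors, no filter, only the groups compared, a replicate block, a 2-fold minimum and leaving out each library.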

Additional observations from a re-analysis of the deposited data

Results flagged for a closer look

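For 5 values the change over time differed between HASX and WT by the test of the difference itself, in edgeR's quasi-likelihood test with Benjamini-Hochberg adjustment over 6234 genes. For 2 h over 1 h these were 3 of 8 members, where 29.3% of all genes were called. For 4 h over 1 h they were 2 of 8, where 44.1% of all genes were called. Between 1 h and 2 h the rise of zym1 was larger in HASX by 1.47 ± 0.18 on the log2 scale (adjusted p = 9.63e-06), and all 21 fits with a library left out kept that call. Over the same step zhf1 differed by -0.64 ± 0.16 (adjusted p = 0.00543), falling in HASX while WT gave no call, and was also kept in all 21 fits. Loz1 differed by -0.49 ± 0.15 (adjusted p = 0.0233), and lost the call in 4 of 21 fits, with an adjusted p of up to 0.0707 without HASX 2 h replicate 2. Its own step was -0.08 ± 0.11 in HASX (adjusted p = 0.639) and 0.41 ± 0.11 in WT (adjusted p = 0.0278). Between 1 h and 4 h ctr6 differed by -0.62 ± 0.24 (adjusted p = 0.042) and zym1 by -0.47 ± 0.18 (adjusted p = 0.0371). Those calls were lost in 8 and 7 of the 21 fits, with an adjusted p of up to 0.105 both for ctr6 (without WT 1 h replicate 2) and for zym1 (without WT 1 h replicate 1). Both were also lost with DESeq2's size factors. Without the library labelled HASX 4 h replicate 3 they were -0.51 for ctr6 (adjusted p = 0.0564) and -0.39 for zym1 (adjusted p = 0.0641).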

How the results depend on the processing

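Under the alternatives tried, 0 member values reversed. Of 120 member values (8 genes, 15 comparisons), DESeq2 lost 1 call and gained 3, its size factors in edgeR lost 4 and gained 1, no filter lost 2 and gained 0, and fitting only the groups compared lost 4 and gained 8. The count of members called moved by over 1.5 times with DESeq2's size factors, 0 members (2 in the report) for the difference between strains at 4 h over 1 h. With only the groups compared, 1 member (2) was called in WT at 2 h over 0 h, 1 (2) in WT at 2 h over 1 h, 7 (4) in HASX at 2 h over 1 h and 5 (3) for the difference between strains at 2 h, and of all genes 259 (1096), 728 (400) and, in WT at 4 h over 1 h, 4317 (2763).

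Asking also for a 2-fold change left 1 member and 137 of 579 genes in WT at 1 h over 0 h, 141 of 1096 genes at 2 h, and 3 members and 1075 of 3210 genes at 4 h. For HASX over WT it left 2843 of 4625 genes at 1 h, 5 members and 3081 of 4790 genes at 2 h, and 2702 of 4712 genes at 4 h. For HASX over WT at 0 h it left 2828, 3006 and 3251 genes of 4600, 4716 and 4917. Within WT it left 0 members and 54 genes at 2 h over 1 h and 2 members and 869 genes at 4 h over 1 h. Within HASX it left 1 member and 313 of 1972 genes, and 3 members and 932 of 2793 genes, and for the differences between strains 1 member and 565 of 1827 genes at 2 h, and 0 members and 1422 of 2748 genes at 4 h.

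Leaving out each library gave 2 to 6 members and 320 to 1058 genes in WT at 1 h over 0 h, and 1 to 3 members and 355 to 2354 genes at 2 h. It gave 0 to 2 members and 163 to 1272 genes in WT at 2 h over 1 h, 2 to 4 members in HASX at 2 h over 1 h, 3 to 6 at 4 h over 1 h, and 2 to 5 and 0 to 3 for the differences between strains. With the replicate number as a block, 4 members (5) were called in WT at 1 h over 0 h and 4 (3) for the difference between strains at 2 h. In the comparisons where the numbers paired the libraries, WT at 2 h and 4 h over 1 h, the block changed no member's call (2 and 6 members). Over the whole series 9 of 21 libraries lay closest to their own number. Under DESeq2's size factors the median of all genes in HASX over WT at 4 h was 0.126, against 0.048 in the report. Depth limits cuf2 and SPBC1348.06c, which stayed under 2 CPM in every library. The causes of these changes were not tested.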
